A study of Mus musculus with 38 samples.

Results

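The 10 genes described here encode cell-surface or secreted proteins by which myeloid and tumour cells restrain or license immune cells. They are the PD-1 ligands Cd274 and Pdcd1lg2, the ligands Cd80 and Cd86 of CD28 and CTLA-4, the phagocytosis checkpoint pair Cd47 and Sirpa, the galectin Lgals9 and its receptor Havcr2, and the enzymes Entpd1 and Nt5e, which turn extracellular ATP into adenosine. They were taken as a list by name, and each was matched to 1 Ensembl identifier among the 55487 genes counted in every library. RNA was sequenced in 38 libraries, which form 18 groups. BV2 is a mouse microglia line. GL261 is a mouse glioma line, and the cells used here carry pEGFP-N1 stably. The macrophages, called BMDM, were grown from mouse bone marrow and are labelled wild type. Each culture was left for 16 h, either in normoxia with 21% oxygen or in hypoxia with less than 0.1%. In the co-culture experiments the 3 kinds of cell were cultured by themselves or in direct contact with the other cell, at 2 GL261 cells to 1 BV2 cell and at 1 to 1 with BMDM, whose libraries were counted in a table of their own. The co-cultured GL261 libraries are those grown with BV2 cells. The panobinostat experiment had no glioma cells: BV2 cells and BMDM received the DMSO vehicle in normoxia and in hypoxia, and panobinostat at 10 nM, which inhibits histone deacetylases, in hypoxia alone. Each group held 2 libraries, except the BMDM co-cultures, with 3 at each oxygen level. BV2 and GL261 replicates come from 1 line each, and the labels give no mouse strain, age or number of animals for the BMDM, so p-values measure the spread between these libraries, which may be technical. How co-cultured cells were separated is not given in the sources used here.

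PD-L1 (Cd274) and PD-L2 (Pdcd1lg2) bind PD-1 on T cells and dampen their activation, while Cd80 and Cd86 give the CD28 signal that activation needs and are also the ligands of the inhibitory receptor CTLA-4. CD47 on a target cell binds SIRPα (Sirpa) on a phagocyte and holds back engulfment, and galectin-9 (Lgals9) is a ligand of TIM-3 (Havcr2). CD39 (Entpd1) on myeloid cells cleaves ATP and ADP to AMP, and CD73 (Nt5e) cleaves AMP to adenosine, which signals through adenosine receptors in hypoxic tumours.

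Cd274 (ENSMUSG00000016496) and Pdcd1lg2 (ENSMUSG00000016498) are neighbours on the plus strand of the mouse genome (GRCm38, the build also called mm10), at chr19:29367455-29388095 and chr19:29410919-29471161. Entpd1 (ENSMUSG00000048120) lies on the same chromosome at chr19:40612366-40741602. Cd80 (ENSMUSG00000075122, chr16:38455561-38496335), Cd86 (ENSMUSG00000022901, chr16:36603869-36666081) and Cd47 (ENSMUSG00000055447, chr16:49800533-49915010) share chromosome 16. Havcr2 (ENSMUSG00000020399, chr11:46454935-46481255) and Lgals9 (ENSMUSG00000001123, chr11:78962974-78984946) share chromosome 11, and Sirpa (ENSMUSG00000037902) and Nt5e (ENSMUSG00000032420) lie at chr2:129592835-129632228 and chr9:88327197-88372092. All 10 are annotated as protein coding, and coordinates span the whole gene with exons and introns. An antisense gene, AC119228.1, overlaps 511 exon bases of Cd274. Its own count was 38 and 9 in replicates 2 and 3 of hypoxic BMDM co-cultures and 26 in replicate 1 of hypoxic BMDM with DMSO. It was 0 to 3 in every other library. The 38 and 26 fell in the libraries with the most Cd274 of their groups, at 1238 and 1291 counts. Of the 75-base words of Cd274 transcripts 9.22% occur in other genes, AC119228.1 among them, so Cd274 counts carry that uncertainty if strand was not used in counting. Of Cd47 words 0.0301% were shared, and none were for the other 8 members.

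The promoters of 5 members are shown because their transcripts moved with oxygen, 3 of them upward in BV2 cells (Cd274, Cd47 and Entpd1) and the other two downward in several groups (Lgals9 and Cd80). Each is the RefSeq window of 300 bases on GRCm38.p6 around the annotated start, written 5′ to 3′ on the gene's strand. Capitals mark the core of the hypoxia response element, ACGTG or GCGTG on either strand, where the reverse strand reads CACGT or CACGC. Such a core occurs in 43.8% of the 32851 promoter windows of the same length, and a match here is a description of the letters only.
Cd274, chr19:29367188-29367487, plus strand: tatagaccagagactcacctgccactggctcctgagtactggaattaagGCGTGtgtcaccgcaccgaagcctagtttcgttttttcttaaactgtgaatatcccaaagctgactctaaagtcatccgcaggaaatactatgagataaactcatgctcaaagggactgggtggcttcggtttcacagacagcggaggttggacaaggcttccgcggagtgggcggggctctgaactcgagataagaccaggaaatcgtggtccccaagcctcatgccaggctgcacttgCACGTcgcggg
Cd47, chr16:49855404-49855703, plus strand: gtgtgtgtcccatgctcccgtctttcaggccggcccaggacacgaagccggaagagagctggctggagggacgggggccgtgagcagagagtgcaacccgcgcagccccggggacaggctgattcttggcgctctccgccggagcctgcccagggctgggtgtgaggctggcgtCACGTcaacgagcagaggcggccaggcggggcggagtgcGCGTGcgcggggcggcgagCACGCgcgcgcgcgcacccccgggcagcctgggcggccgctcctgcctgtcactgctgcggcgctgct
Entpd1, chr19:40612116-40612415, plus strand: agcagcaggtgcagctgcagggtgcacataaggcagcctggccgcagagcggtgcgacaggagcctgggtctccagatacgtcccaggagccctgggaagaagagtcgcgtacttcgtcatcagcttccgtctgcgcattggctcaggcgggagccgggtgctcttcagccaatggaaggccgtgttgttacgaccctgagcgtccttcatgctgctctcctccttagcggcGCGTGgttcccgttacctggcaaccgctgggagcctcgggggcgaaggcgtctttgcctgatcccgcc
Lgals9, chr11:78984875-78985174, minus strand: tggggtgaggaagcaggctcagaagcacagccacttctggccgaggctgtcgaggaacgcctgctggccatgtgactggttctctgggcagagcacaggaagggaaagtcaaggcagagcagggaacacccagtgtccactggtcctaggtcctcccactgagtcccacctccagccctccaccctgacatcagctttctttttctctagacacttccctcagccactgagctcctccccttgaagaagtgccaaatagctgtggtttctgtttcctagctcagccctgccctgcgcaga
Cd80, chr16:38458683-38458982, plus strand: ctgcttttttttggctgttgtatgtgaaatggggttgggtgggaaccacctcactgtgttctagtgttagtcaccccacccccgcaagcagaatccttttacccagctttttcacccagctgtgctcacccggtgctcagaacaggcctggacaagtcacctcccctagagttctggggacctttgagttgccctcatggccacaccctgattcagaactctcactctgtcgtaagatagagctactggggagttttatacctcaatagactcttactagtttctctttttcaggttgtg
The Cd47 window holds 3 cores, the Cd274 window 2 and this Entpd1 window 1, while the windows of Lgals9 and Cd80 hold none. Another annotated start of Entpd1, at chr19:40659520-40659819, has none either. Of the members not printed, Havcr2 and Nt5e have 1 core each and Pdcd1lg2 has none, and the table used has no entry for Sirpa and Cd86. Pdcd1lg2 and Havcr2 were also called higher in hypoxic BV2 monocultures, so the printed windows are not those of all members that rose there. The AP-1 motif TGANTCA, found in 7.81% of all windows on either strand, has 1 match each in those of Cd80 and Havcr2.

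Library totals were 9634700 to 27238933 counts. Levels are in CPM, each count scaled to the library total after edgeR's TMM correction within a cell type and experiment. Levels of cell types counted in separate tables are set side by side without a test. A difference was called at a Benjamini-Hochberg adjusted p under 0.05 over all genes tested in edgeR's quasi-likelihood test. The angiogenic factor Vegfa, a hypoxia target, was called higher in 7 of the 8 hypoxia comparisons, by log2 2.14 to 4.48, and not in BMDM with DMSO (log2 1.96, edgeR adjusted p 0.116). All 10 macrophage and microglia markers were detected in every BV2 library, at a summed 2839 to 5175 CPM, and the same markers summed to 1.98 to 4.32 CPM in GL261 cells alone. Partner-cell transcripts amounted to 0.76% ± 0.271 (SD, n = 2) of BV2 co-culture RNA in normoxia and 2.22% ± 0.202 (SD, n = 2) in hypoxia, 2.43% ± 1.21 (SD, n = 3) and 3.74% ± 2.32 (SD, n = 3) of BMDM co-culture RNA, and 0.773% ± 0.202 (SD, n = 2) and 0.237% ± 0.0266 (SD, n = 2) of GL261 co-culture RNA. BMDM of the panobinostat experiment stood apart. The collagen genes Col1a1 and Col1a2, the abundant genes of a list of 4 fibroblast and endothelial markers, brought that list to 2829 to 20520.2 CPM there, against 58.2 to 534 CPM in BMDM of the co-culture experiments. The endothelial markers of that list, Pecam1 and Cdh5, were at most 3.22 and 3.86 CPM in any BMDM library. Summed markers of T cells reached 3.53 CPM, of B cells 0.185, of dendritic cells 13.3 and of neutrophils 18.4 CPM in a BMDM library, the dendritic sum being 12.4 and 13.3 CPM with panobinostat. GL261 glioma and neural markers summed to 2078 to 2743 CPM in GL261 cells and to 0.935 to 8.15 CPM in BV2 cells without co-culture. In BMDM grown without glioma cells they summed to 165 to 262 CPM alone, 197 to 453 CPM with DMSO and 399.6 to 442 CPM with panobinostat. The replicate spread was widest in BMDM of the panobinostat experiment, with a common coefficient of biological variation of 0.381 against 0.0958 in BV2 cells of the co-culture experiments.

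The members fell into sets by the cell that carried them. Sirpa, Entpd1, Cd86 and Havcr2 were myeloid: in normoxic monocultures BV2 cells had 491 and 532 CPM of Sirpa, 48.8 and 51.6 of Entpd1, 38.4 and 43.2 of Cd86 and 5.1 and 4.01 of Havcr2, and both GL261 libraries had 0 counts of each. Against a floor of 3 counts per GL261 library, BV2 levels were at least 3261-fold, 319.9-fold, 260.4-fold and 29.1-fold higher. Pdcd1lg2 was low throughout, at 0.765 and 0.936 CPM in BV2 cells and 0 in GL261 cells, at least 5.42-fold higher in BV2. Cd274 was also higher in BV2 than in GL261 cells, at 11.2 and 11.1 against 3.27 and 3.2 CPM (log2 fold change 1.89 with an SE of 0.20, edgeR adjusted p 6.93e-08), and so was Cd80, at 8.16 and 6.73 against 0.563 and 0.267 CPM (log2 4.25, edgeR adjusted p 5.75e-08). Cd47 was not called, with 78.2 and 82.6 CPM in BV2 and 87.2 and 81.7 in GL261 cells (log2 0.05, edgeR adjusted p 0.781). Lgals9 was the member called lower in BV2 cells, at 23.6 and 12.5 against 103 and 64.2 CPM (log2 -2.09, edgeR adjusted p 1.65e-06). Of the 4 members with counts in both lines, 3 were called, where 73.2% of all 16882 genes tested were called. The other 5 members tested passed the filter on low counts through BV2 cells only, which fixed their difference.

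Between BV2 cells and BMDM, both with DMSO in normoxia, 7 of 10 members were called, against 44.2% of all genes, among them Nt5e, which passed the filter through BMDM only. Cd86 was the member called higher in BV2 cells, at 39.8 and 30.8 CPM against 9.36 and 4.6 in BMDM (log2 2.17, edgeR adjusted p 0.00273). Entpd1 had 53.2 ± 13.1 CPM in BV2 cells and 20.4 ± 7.1 CPM in BMDM (SD, n = 2). Pdcd1lg2 had 0.84 ± 0.498 against 0.141 ± 0.111 CPM, and Cd274 13.2 ± 5.77 against 26.9 ± 21.2 CPM (SD, n = 2). Entpd1, Pdcd1lg2 and Cd274 were not called. Lgals9 was lower in BV2 cells, at 31.7 and 16.2 against 145 and 88.6 CPM (log2 -2.46, edgeR adjusted p 0.000805), and Cd80 was as well, at 6.18 and 2.85 against 14 and 17.5 CPM (log2 -1.98, edgeR adjusted p 0.00451). Cd47, Sirpa and Havcr2 were also lower in BV2 cells, at log2 -1.08, -0.86 and -3.33 (edgeR adjusted p 0.0361, 0.0353 and 0.0256). These 3 calls were lost without single libraries: Cd47 and Sirpa without BV2 replicate 2 (adjusted p 0.232 and 0.221) or BMDM replicate 1 (0.211 and 0.0514), Sirpa also without BMDM replicate 2 (0.155), and Havcr2 without either BV2 library (0.0684 and 0.161) or BMDM replicate 2 (0.161). Nt5e had 0 counts in every BV2 library of this experiment and 10.01 and 6.99 CPM in normoxic BMDM, at least 39.3-fold higher. The BMDM libraries of this comparison are those with the fibroblast markers, whose part in it was not tested. In BMDM of the co-culture experiments Nt5e lay between 0 and 1.52 CPM.

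**Figure D1:**
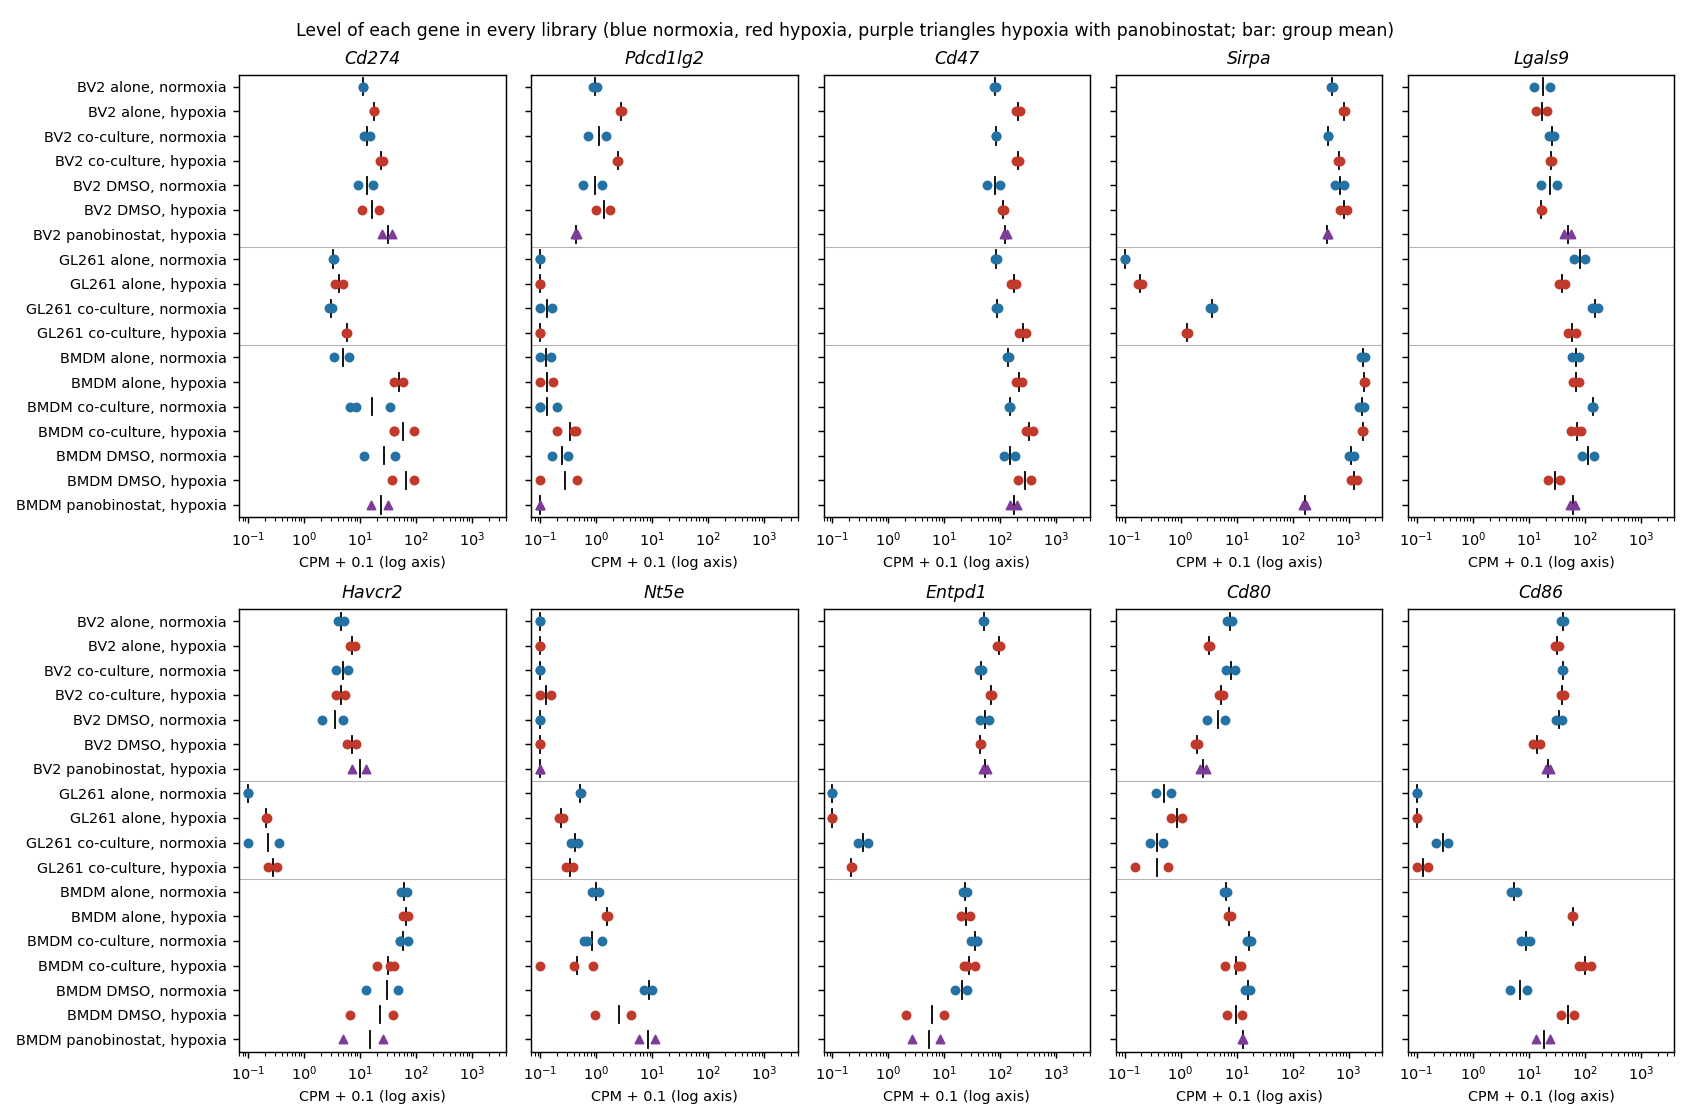
Level of each member in every library, as CPM plus 0.1 on a log axis, with 1 row per group, points for libraries and a bar at the group mean. Sirpa, Entpd1, Cd86 and Havcr2 sit near the left edge in GL261 cells alone, and Cd86 and Cd274 of BMDM lie to the right in hypoxia.

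Across the 18 groups, Cd274 ran from 2.9 ± 0.241 CPM (SD, n = 2) in GL261 co-cultures in normoxia to 65 ± 38.4 CPM (SD, n = 2) in hypoxic BMDM with DMSO. Cd47 spanned less, from 78.7 ± 30.8 CPM (SD, n = 2) in BV2 cells with DMSO to 321 ± 54.5 CPM (SD, n = 3) in hypoxic BMDM co-cultures. Havcr2 peaked at 65.2 ± 8.95 CPM (SD, n = 2) in hypoxic BMDM monocultures, and Sirpa was highest in the same group at 1919 ± 52.8 CPM (SD, n = 2). Entpd1 was highest in hypoxic BV2 monocultures (92.6 ± 5.73 CPM (SD, n = 2)), as was Pdcd1lg2 (2.68 ± 0.216 CPM (SD, n = 2)). Lgals9 was highest in normoxic GL261 co-cultures (153 ± 22.4 CPM (SD, n = 2)), Cd80 in normoxic BMDM co-cultures (16.7 ± 1.55 CPM (SD, n = 3)) and Cd86 in hypoxic BMDM co-cultures (103 ± 27.4 CPM (SD, n = 3)). Ordered by group mean, most neighbours were not separated: library values overlapped in all 17 neighbouring pairs of groups for Lgals9, 16 for Cd47, 14 for Pdcd1lg2 and Havcr2, 13 for Cd274, 12 for Nt5e and Cd86, 9 for Entpd1 and Cd80 and 8 for Sirpa.

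Hypoxia was compared with normoxia in 8 settings, and 31 of 64 tests of a member were called, 20 higher and 11 lower, beside 40.3% of all tests of all genes. In BV2 monocultures 8 of 9 members tested were called (61.9% of all genes): 6 rose, beside 30.9% of all genes, and 2 fell, beside 31%. The median log2 change was 0.67 over the members and 0 over all genes. In BV2 cells from co-culture 6 of 9 were called (67.3%), 5 higher (35.2%) and 1 lower (32.1%). In BV2 cells with DMSO 2 of 9 were called (37.5%), none higher (17.2%) and 2 lower (20.2%). GL261 cells alone gave 2 of 5 (44.6%), 1 higher (23.2%) and 1 lower (21.4%). GL261 cells from co-culture gave 4 of 5 (52.4%), 2 higher (26.8%) and 2 lower (25.6%). The 2 lower were Lgals9 and Sirpa, the latter near or below the level that partner-cell transcripts would supply. BMDM alone gave 3 of 9 (23.9%), all higher (13.3%, against 10.6% of genes lower). BMDM from co-culture gave 6 of 9 (34.8%), 3 higher (17.5%) and 3 lower (17.3%), and BMDM with DMSO gave 0 of 9 (0.483%). In that last comparison 2 members had an unadjusted edgeR p under 0.05, DESeq2 called 2, and a fit with the replicate number as a block called 5 (14.3% of all genes). The direction depended on the member and the cell. Cd274 and Cd47 had a positive log2 change in all 8 comparisons, and Lgals9 and Cd80 were called lower or not called in each.

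**Figure D2:**
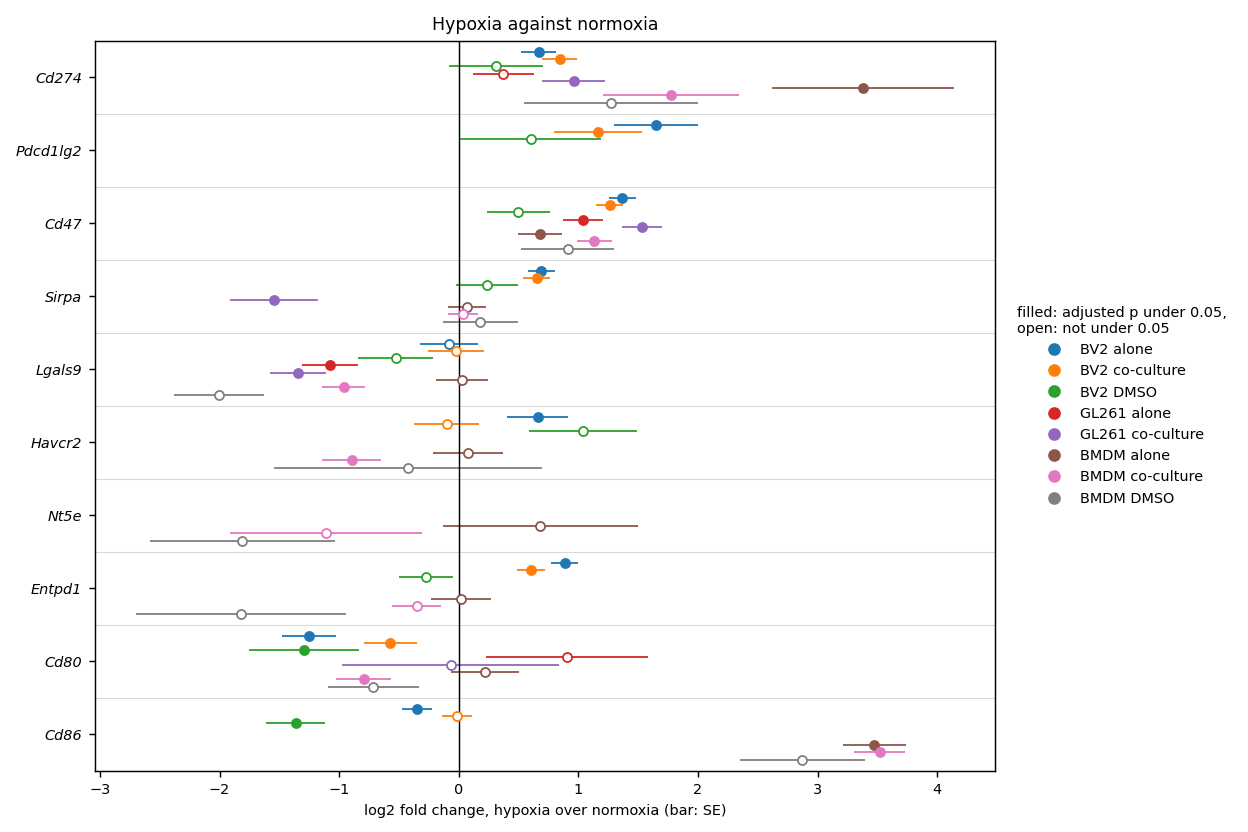
Log2 fold change of each member in hypoxia over normoxia, with its SE as a bar, in the 8 comparisons; filled points have an adjusted p under 0.05. Members too low to be tested, or with 0 counts in a group, have no point. Cd274 and Cd47 lie to the right of 0 throughout, and Cd86 lies left of 0 in BV2 cells alone and with DMSO and between 2.87 and 3.52 in BMDM.

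Cd274, which encodes PD-L1, rose in hypoxia in BV2, BMDM and co-cultured GL261 cells. In BV2 monocultures it went from 11.2 and 11.1 to 17.6 and 17.7 CPM (log2 fold change 0.67 with an SE of 0.15, edgeR adjusted p 0.000839), and in BV2 co-cultures from 14.9 and 11.8 to 22.7 and 25.2 CPM (log2 0.84, edgeR adjusted p 9.38e-05). Neither pair of groups overlapped, and the replicates of a condition lay close together. In BMDM alone Cd274 rose from 3.28 and 6.36 to 40.8 and 58.9 CPM (log2 fold change 3.38 with an SE of 0.76, edgeR adjusted p 0.00963). That call was lost without normoxic replicate 1 (adjusted p 0.0978) or hypoxic replicate 2 (0.0546), with log2 changes of 2.90 and 3.07. BMDM from co-culture had 8.34, 35 and 6.56 CPM in normoxia and 40.1, 92.2 and 39.8 in hypoxia (log2 1.78, edgeR adjusted p 0.0315). Replicate 2 was the highest of its group at both oxygen levels, and its normoxic value nearly reached the lowest hypoxic one. With the replicate number as a block the rise was 1.99 (adjusted p 0.00041), while without hypoxic replicate 2 it was 1.24 (adjusted p 0.124), without normoxic replicate 1 or 3 it was 1.44 or 1.41 (adjusted p 0.104 and 0.0915), and in a fit of these groups alone the adjusted p was 0.0557.

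GL261 cells held less Cd274. It went from 2.73 and 3.07 to 5.8 and 5.5 CPM in co-culture (log2 fold change 0.96 with an SE of 0.26, edgeR adjusted p 0.00909), a call lost without normoxic replicate 1 (adjusted p 0.0708). Alone, GL261 cells had 3.27 and 3.2 CPM in normoxia and 4.81 and 3.53 in hypoxia (log2 0.37, edgeR adjusted p 0.253). In the panobinostat experiment the groups overlapped: BV2 cells with DMSO had 17.3 and 9.12 CPM in normoxia and 21.9 and 10.8 in hypoxia (log2 0.31, edgeR adjusted p 0.563), and BMDM had 42 and 11.9 CPM against 92.2 and 37.9 CPM (log2 1.27, edgeR adjusted p 0.311). Replicate 1 was above replicate 2 in each of these 4 groups, and with the replicate number as a block the BMDM difference was called (log2 1.38, adjusted p 0.0306). Pdcd1lg2, the PD-L2 gene, was measurable in BV2 cells, at a few CPM. It rose in monoculture from 0.765 and 0.936 to 2.83 and 2.53 CPM (log2 fold change 1.65 with an SE of 0.35, edgeR adjusted p 0.000677) and in co-culture from 0.622 and 1.39 to 2.28 and 2.39 CPM (log2 1.16, edgeR adjusted p 0.0103), the latter not called without normoxic replicate 1 (adjusted p 0.113) or hypoxic replicate 2 (0.0525). With DMSO it was 1.19 and 0.487 CPM in normoxia and 1.65 and 0.897 in hypoxia (log2 0.60, edgeR adjusted p 0.449). In BMDM it did not pass the filter, with at most 0.357 CPM in a library.

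Of the CD28 ligands, Cd86 rose in BMDM, from 6.08 and 4.79 to 61 and 60.2 CPM in monoculture (log2 fold change 3.47 with an SE of 0.26, edgeR adjusted p 2.01e-05) and from 9.02, 10.3 and 7.33 to 132, 96.9 and 78.4 CPM in co-culture (log2 fold change 3.52 with an SE of 0.21, edgeR adjusted p 3.66e-06). The groups were far apart in both comparisons, and no left-out library ended either call. In BMDM with DMSO it went from 9.36 and 4.6 to 63.8 and 38.3 CPM, which missed the threshold (log2 2.87, edgeR adjusted p 0.0729) and passed it with the replicate block (adjusted p 0.0134). In BV2 cells Cd86 fell with DMSO, from 39.8 and 30.8 to 11.8 and 15.6 CPM (log2 fold change -1.36 with an SE of 0.25, edgeR adjusted p 0.0027). It fell less in BV2 monocultures, from 38.4 and 43.2 to 29.1 and 35.1 CPM (log2 -0.35, edgeR adjusted p 0.026), a call lost with DESeq2 (adjusted p 0.0574), with a filter at a mean of 5 CPM (0.071), and without normoxic replicate 2 (0.182) or hypoxic replicate 1 (0.304). Co-cultured BV2 cells had 39.6 and 40.9 CPM in normoxia and 37.9 and 41.8 in hypoxia (log2 -0.02, edgeR adjusted p 0.917). The difference between the co-culture and panobinostat experiments in BV2 cells was not tested, since they were counted in separate tables.

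Cd80 fell in hypoxia in BV2 cells and co-cultured BMDM. In BV2 monocultures it went from 8.16 and 6.73 to 3.01 and 3.24 CPM (log2 fold change -1.25 with an SE of 0.23, edgeR adjusted p 0.000164). BV2 co-cultures went from 9.13 and 6.4 to 5.62 and 4.72 CPM (log2 -0.57, edgeR adjusted p 0.0300), not called by DESeq2 (adjusted p 0.0674), without normoxic replicate 1 (0.299) or without hypoxic replicate 2 (0.100). With DMSO the BV2 libraries went from 6.18 and 2.85 to 1.73 and 1.94 CPM (log2 -1.29, edgeR adjusted p 0.049). That call lay at the threshold and was lost in 6 of the alternatives, among them DESeq2 (0.0698) and leaving out normoxic replicate 1 (log2 -0.61, adjusted p 0.329) or hypoxic replicate 1 or 2 (0.157 and 0.0883). BMDM from co-culture had 17, 18.1 and 15 CPM in normoxia and 10.6, 6.25 and 12.1 in hypoxia (log2 -0.79, edgeR adjusted p 0.0206), with an adjusted p of 0.0523 in a fit of these groups alone. BMDM alone had 6.62 and 5.98 CPM against 7.78 and 6.91 CPM (log2 0.22, edgeR adjusted p 0.626). In GL261 cells Cd80 was at most 0.954 CPM in any library.

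Cd47, the "don't eat me" ligand, was the member called most often, higher in 6 of the 8 hypoxia comparisons. It went from 78.2 and 82.6 to 223 and 192 CPM in BV2 monocultures (log2 fold change 1.37 with an SE of 0.11, edgeR adjusted p 4.02e-08) and from 84.4 and 84.6 to 192 and 212 CPM in BV2 co-cultures (log2 1.26, edgeR adjusted p 8.59e-08). The rise in GL261 cells was from 87.2 and 81.7 to 194 and 152 CPM alone (log2 fold change 1.04 with an SE of 0.17, edgeR adjusted p 0.000535) and from 92 and 83.6 to 290.2 and 218 CPM in co-culture (log2 1.53, edgeR adjusted p 2.63e-05). Levels of glioma and microglial monocultures overlapped at both oxygen levels. BMDM went from 141 and 129 to 239.8 and 193 CPM alone (log2 0.68, edgeR adjusted p 0.0208) and from 152, 147 and 141 to 286, 384 and 293 CPM in co-culture (log2 fold change 1.13 with an SE of 0.15, edgeR adjusted p 0.000275). The call in BMDM alone was lost whichever of its 4 libraries was left out, with adjusted p from 0.0552 to 0.208. With DMSO, BV2 cells had 100.5 and 56.9 CPM in normoxia and 116 and 106 in hypoxia (log2 0.50, edgeR adjusted p 0.162), and BMDM 179.9 and 116 CPM against 351 and 204 CPM (log2 0.91, edgeR adjusted p 0.209). With the replicate block these had adjusted p of 0.0295 and 0.0499.

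Sirpa, the receptor for CD47 on phagocytes, rose in BV2 cells from 491 and 532 to 785 and 863 CPM in monoculture (log2 fold change 0.69 with an SE of 0.11, edgeR adjusted p 5.77e-05) and from 437 and 423 to 698 and 652 CPM in co-culture (log2 0.65, edgeR adjusted p 9.54e-05). BV2 cells with DMSO had 823 and 568 CPM in normoxia and 930.3 and 706 in hypoxia, overlapping groups (log2 0.23, edgeR adjusted p 0.501). In BMDM the level was high and overlapped between oxygen levels, at 1965 and 1694 against 1957 and 1882 CPM alone (log2 0.07, edgeR adjusted p 0.793) and 1855, 1808 and 1562 against 1733, 1785 and 1840.1 CPM in co-culture (log2 0.04, edgeR adjusted p 0.852). BMDM with DMSO had 999.7 and 1233 CPM against 1437 and 1093 CPM (log2 0.18, edgeR adjusted p 0.737).

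Lgals9, which encodes galectin-9, fell with hypoxia in glioma cells. GL261 monocultures went from 103 and 64.2 to 45.2 and 34 CPM (log2 fold change -1.07 with an SE of 0.23, edgeR adjusted p 0.0033), and GL261 co-cultures from 169 and 138 to 70.03 and 50.8 CPM (log2 -1.35, edgeR adjusted p 0.000564). Replicate 1 was the higher library in each of these 4 groups, the groups did not overlap within a culture, and no left-out library ended either call. BMDM from co-culture also fell, from 142, 136 and 142 to 86.1, 57.4 and 72 CPM (log2 fold change -0.96 with an SE of 0.18, edgeR adjusted p 0.00206). BMDM alone had 58.2 and 79.9 CPM against 61 and 79.9 CPM (log2 0.03, edgeR adjusted p 0.948). BMDM with DMSO had 145 and 88.6 CPM against 21.6 and 36.7, with no overlap (log2 -2.01, edgeR adjusted p 0.0729; replicate block adjusted p 0.0303). BV2 cells had 23.6 and 12.5 CPM against 21 and 13.3 CPM alone (log2 -0.08, edgeR adjusted p 0.795), and the groups overlapped in co-culture and with DMSO as well. Havcr2, which encodes TIM-3, rose in BV2 monocultures from 5.1 and 4.01 to 6.43 and 7.96 CPM (log2 0.66, edgeR adjusted p 0.0332), a call lost without normoxic or hypoxic replicate 2 (adjusted p 0.184 and 0.182). In BV2 cells with DMSO it was 4.84 and 2.02 CPM in normoxia and 8.25 and 5.83 in hypoxia (log2 1.04, edgeR adjusted p 0.0973; replicate block adjusted p 0.00404).

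In BMDM, where Havcr2 was most abundant, it had 54.2 and 69.5 CPM in normoxia and 58.9 and 71.6 in hypoxia alone (log2 0.08, edgeR adjusted p 0.883). It fell in co-culture from 72.2, 50.9 and 51.8 to 41, 19.7 and 33.7 CPM (log2 fold change -0.89 with an SE of 0.25, edgeR adjusted p 0.0155), with an adjusted p of 0.0516 without normoxic replicate 1. In BMDM with DMSO the replicates differed more than the oxygen levels, at 12.5 and 48.4 CPM in normoxia and 6.5 and 39.2 in hypoxia (log2 -0.42, edgeR adjusted p 0.836).

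Of the adenosine enzymes, Entpd1 (CD39) rose in hypoxic BV2 cells, from 48.8 and 51.6 to 88.6 and 96.7 CPM alone (log2 fold change 0.89 with an SE of 0.11, edgeR adjusted p 4.37e-06) and from 42.3 and 47.4 to 70.7 and 65.8 CPM in co-culture (log2 0.60, edgeR adjusted p 0.000233). With DMSO the BV2 values were 62.5 and 43.9 CPM in normoxia and 43.7 and 44.2 in hypoxia (log2 -0.28, edgeR adjusted p 0.359), with no call. BMDM had 25.2 and 21.8 against 19.3 and 28.3 CPM alone (log2 0.02, edgeR adjusted p 0.972) and 38.4, 29.997 and 37.8 against 35.6, 25.1 and 22.5 CPM in co-culture (log2 -0.35, edgeR adjusted p 0.200). In BMDM with DMSO it was 15.3 and 25.4 CPM in normoxia and 1.93 and 9.75 in hypoxia (log2 -1.82, edgeR adjusted p 0.248; replicate block log2 -2.15, adjusted p 0.0358). Nt5e (CD73), the next enzyme of the pathway, was at or near 0 in BV2 cells, with 1 count in 1 library and none in the other 13. GL261 libraries had 0.114 to 0.427 CPM, below the filter. In the co-culture experiments, BMDM alone had 1.04 and 0.756 CPM in normoxia and 1.38 and 1.52 in hypoxia (log2 0.68, edgeR adjusted p 0.591). BMDM from co-culture had 0.754 ± 0.379 CPM (SD, n = 3) in normoxia and 0.355 ± 0.384 CPM (SD, n = 3) in hypoxia. That difference, in the other direction, was not called. BMDM with DMSO had 10.01 and 6.99 CPM against 0.857 and 4.1 CPM (log2 -1.81, edgeR adjusted p 0.208). Over the same 4 libraries the fibroblast and endothelial markers summed to 20520.2 and 19060.5 CPM in normoxia and 2829 and 14066 in hypoxia, the lowest Nt5e and the lowest marker sum falling in the same library. In these BMDM all 10 macrophage and microglia markers had a negative log2 change with hypoxia (0 called), with a median of -0.763. Their sum was 9627 and 6851 CPM in normoxia and 3312 and 5065 in hypoxia. The part of either marker list in the Nt5e, Entpd1 and Lgals9 values was not tested.

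**Figure D3:**
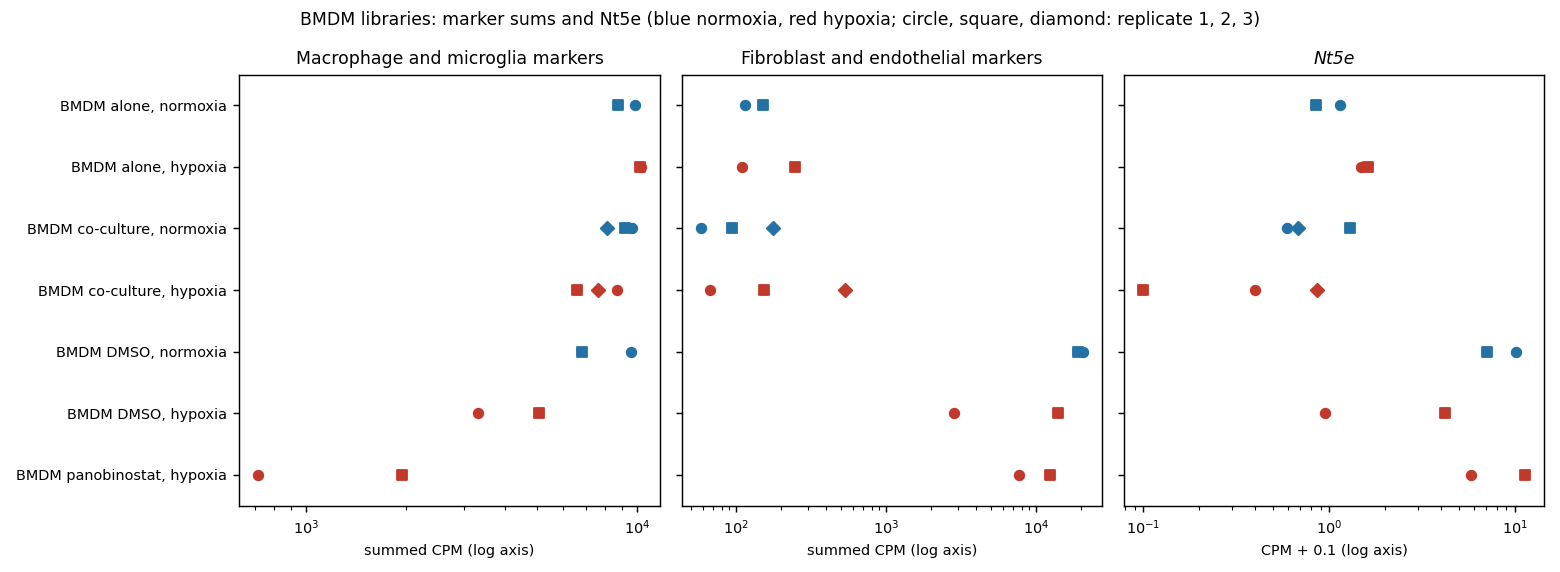
BMDM libraries of the co-culture and panobinostat experiments, with the summed CPM of 10 macrophage and microglia markers, the summed CPM of 4 fibroblast and endothelial markers, and Nt5e as CPM plus 0.1, all on log axes; colour marks oxygen and shape the replicate. The 6 libraries of the panobinostat experiment have 2829 to 20520.2 CPM of fibroblast and endothelial markers, and both panobinostat libraries have the lowest macrophage sums.

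Co-culture with the partner cell was compared with monoculture at each oxygen level, and 7 of 46 tests of a member were called, 5 higher and 2 lower, beside 6.76% of all tests. The 5 higher include Sirpa in GL261 cells at both oxygen levels, where it passed the filter on low counts through co-culture only. Each co-culture comparison shares its monoculture or co-culture libraries with a hypoxia comparison above. In BV2 cells 0 of 9 members were called in normoxia (14.9% of all genes), where edgeR gave 1 an unadjusted p under 0.05 and DESeq2 called 0, and 2 of 9 in hypoxia (15.7%). In hypoxia Cd274 was 17.6 and 17.7 CPM in monoculture and 22.7 and 25.2 in co-culture (log2 0.44, edgeR adjusted p 0.0482). This rise was small and was lost in 8 alternatives, among them DESeq2 (adjusted p 0.0821) and each left-out library (0.0893 to 0.298). Entpd1 fell from 88.6 and 96.7 to 70.7 and 65.8 CPM (log2 fold change -0.44 with an SE of 0.11, edgeR adjusted p 0.0132), with an adjusted p of 0.0505 without monoculture replicate 2. The other 7 members tested were not called in hypoxia, with adjusted p from 0.0512 (Cd80) to 0.878 (Cd47). In bulk RNA, fewer cells of a type and less RNA per cell cannot be told apart. The partner's own level could supply at most 3.59% of a member's group mean in BV2 co-cultures and 2.11% in BMDM co-cultures, for the 8 members other than Pdcd1lg2 and Nt5e.

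In BMDM, 2 of 9 members were called in normoxia (1.64% of all genes). Cd80 rose from 6.62 and 5.98 CPM alone to 17, 18.1 and 15 in co-culture (log2 fold change 1.41 with an SE of 0.27, edgeR adjusted p 0.0285), and Lgals9 from 58.2 and 79.9 to 142, 136 and 142 CPM (log2 fold change 1.02 with an SE of 0.21, edgeR adjusted p 0.0356). Both genes were roughly level across the 3 co-culture libraries. Without either monoculture library neither was called (Cd80 adjusted p 0.25 and 0.281, Lgals9 0.417 and 0.132), nor without co-culture replicate 2 (0.0776 and 0.0773) or 3 (0.0534 and 0.0826), nor Lgals9 without replicate 1 (0.0532). With partner counts subtracted the adjusted p was 0.0791 for Cd80 and 0.0847 for Lgals9, at log2 changes of 1.46 and 1.05. With the filter at a mean of 5 CPM, Lgals9 had an adjusted p of 0.0538. In hypoxia 1 of 9 was called (7.11%): Havcr2 fell from 58.9 and 71.6 to 41, 19.7 and 33.7 CPM (log2 fold change -1.06 with an SE of 0.27, edgeR adjusted p 0.0402). This was lost in 9 alternatives, with the replicate block at an adjusted p of 0.0546, without either monoculture library at 0.136 and 0.275, and without co-culture replicate 2 or 3 at 0.0562 and 0.0898. The Cd86 co-culture libraries lay above the monoculture ones in normoxia (9.02, 10.3 and 7.33 against 6.08 and 4.79 CPM, log2 0.71, edgeR adjusted p 0.219) and in hypoxia (log2 0.76, edgeR adjusted p 0.0589).

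In GL261 cells Sirpa was the called member in both comparisons, 1 of 5 in normoxia (0.514% of all genes) and 1 of 5 in hypoxia (1.39%). Sirpa passed the filter on low counts through the co-culture libraries only, which fixed its difference from monoculture. It went from 0 counts in both normoxic monocultures to 3.7 and 3.32 CPM in co-culture, at least 22.4-fold higher than a floor of 3 counts per library (edgeR adjusted p 0.00211). In hypoxia it went from 0.0763 and 0.107 to 1.26 and 1.13 CPM, a ratio of 13.4 (95% counting interval 4.84 to 51.6; edgeR adjusted p 0.0156). Within co-culture it was lower in hypoxia than in normoxia (log2 fold change -1.55 with an SE of 0.37, edgeR adjusted p 0.00508), as was the share of partner transcripts, at 0.237% ± 0.0266 (SD, n = 2) against 0.773% ± 0.202 (SD, n = 2). At that share, BV2 transcripts alone would give 4.72 and 3.25 CPM of Sirpa in the normoxic libraries, which had 3.7 and 3.33 plain CPM, and 2.05 and 1.75 CPM in the hypoxic ones, which had 1.19 and 1.11. Entpd1, also at 0 in GL261 monocultures, was at 0.324 and 0.185 plain CPM in normoxic co-cultures, where BV2 transcripts would give 0.463 and 0.319. Cd86 was at 0.26 and 0.123 plain CPM, where they would give 0.377 and 0.26. The 3 genes lay near or below the level the partner would supply, and Cd274, Cd47 and Lgals9 lay far above it. The calls of Sirpa were lost without normoxic monoculture replicate 2 (0.0517), and in hypoxia without monoculture replicate 2 (0.0511), without co-culture replicate 1 (0.0534) and in a fit of these groups alone (0.114). With the expected partner counts subtracted, Sirpa in GL261 cells was too low to be tested. The fall with hypoxia had an adjusted p of 0.0515 without normoxic co-culture replicate 1. Lgals9 had 103 and 64.2 CPM alone and 169 and 138 in co-culture in normoxia (log2 0.88, edgeR adjusted p 0.185). DESeq2 called this difference (adjusted p 0.0157). In hypoxia DESeq2 also called Cd47, at 194 and 152 CPM alone and 290.2 and 218 in co-culture (adjusted p 0.0464; edgeR log2 0.55, edgeR adjusted p 0.141).

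**Figure D4:**
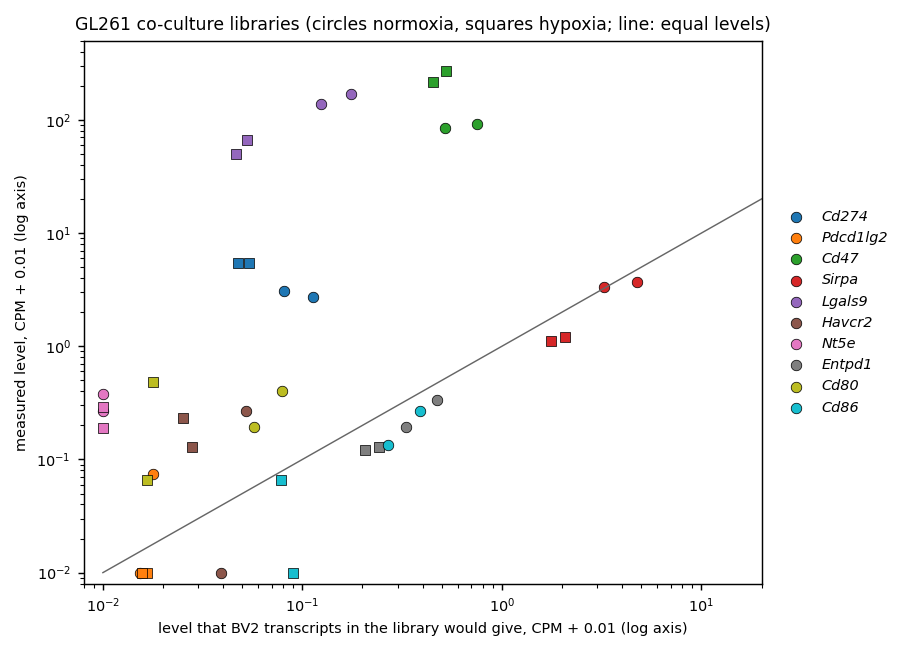
Measured level of each member in the 4 GL261 co-culture libraries against the level that the BV2 transcripts in the library would give, both as plain CPM plus 0.01 on log axes; the line marks equal levels. Sirpa, Entpd1 and Cd86 lie near or under the line, and Lgals9, Cd47 and Cd274 lie far above it.

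The hypoxia effect itself was compared between co-culture and monoculture as an interaction. By edgeR 0 members were called in BV2 (2.19% of all genes), GL261 (0%) and BMDM (0%) cells, and 5 of the 23 tests had an unadjusted p under 0.05. DESeq2 called 0 as well. In BMDM such values were found for Lgals9 (log2 -0.99, SE 0.28), Cd80 (-1.01, SE 0.37) and Havcr2 (-0.97, SE 0.38), each with an edgeR adjusted p of 1. The effects of hypoxia on these 3 genes, called in co-cultured BMDM and not in BMDM alone, are therefore not shown to differ.

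Panobinostat was compared with DMSO in hypoxia, and 2 of 18 tests of a member were called, beside 6.88% of all tests. In BV2 cells 2 of 9 were called (14.6% of all genes). Lgals9 rose from 16.2 and 17 CPM with DMSO to 57.6 and 42.7 with panobinostat (log2 fold change 1.60 with an SE of 0.31, edgeR adjusted p 0.0122), and was not called without panobinostat replicate 1 (adjusted p 0.0783). Sirpa fell from 930.3 and 706 to 414 and 425 CPM (log2 fold change -0.96 with an SE of 0.26, edgeR adjusted p 0.0361), and was not called without DMSO replicate 1 (0.158) or panobinostat replicate 1 or 2 (0.255 and 0.198). Of the 10 macrophage and microglia markers, 8 had a negative log2 change with panobinostat in BV2 cells, 3 were called lower and 1 higher. Their part in the Sirpa value was not tested. Cd274 went from 21.9 and 10.8 to 37.3 and 25.1 CPM, higher in both replicates and not called (log2 0.93, edgeR adjusted p 0.135). With the replicate number as a block Cd274 was called (log2 0.98, adjusted p 0.00105), as were Cd86, at 11.8 and 15.6 CPM against 20.4 and 24.3 with panobinostat (log2 0.71, adjusted p 0.0177), and Pdcd1lg2, at 1.65 and 0.897 CPM against 0.322 and 0.36 (log2 -1.81, adjusted p 0.0467). Havcr2 had 8.25 and 5.83 against 12.5 and 7.21 CPM (log2 0.48, edgeR adjusted p 0.487), and Cd47, Cd80 and Entpd1 had adjusted p of 0.744, 0.583 and 0.434.

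In BMDM 0 of 9 members were called, and edgeR called 0 of all 14914 genes. At an unadjusted p under 0.05 there were 3 members, DESeq2 called 1, and the replicate block called 3 (13.7% of all genes). Sirpa went from 1437 and 1093 CPM with DMSO to 174 and 156 with panobinostat (log2 fold change -2.94 with an SE of 0.34, edgeR adjusted p 0.0509; replicate block adjusted p 0.0215; DESeq2 adjusted p 8.11e-18). Both libraries with panobinostat were far below both with DMSO. Macrophage markers moved with it: all 10 had a negative log2 change (0 called), with a median of -1.44, and their sum went from 3312 and 5065 to 717 and 1944 CPM, with Csf1r, the CSF-1 receptor gene, at 1270.1 and 1963 CPM with DMSO against 117 and 655 CPM. The fibroblast and endothelial markers summed to 2829 and 14066 CPM with DMSO and 7661 and 12409.7 with panobinostat. The part of either marker list in the Sirpa value was not tested. Cd274 went from 92.2 and 37.9 to 31.5 and 15.5 CPM (log2 -1.47, edgeR adjusted p 0.262; replicate block adjusted p 0.0298) and Cd86 from 63.8 and 38.3 to 23.7 and 13.2 CPM (log2 -1.47, edgeR adjusted p 0.135; replicate block adjusted p 0.0245), lower in both replicates. Lgals9 went from 21.6 and 36.7 to 55.5 and 68.2 CPM (log2 1.09, edgeR adjusted p 0.138) and Nt5e from 0.857 and 4.1 to 5.67 and 11.3 CPM (log2 1.80, edgeR adjusted p 0.207), higher in both replicates.

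**Figure D5:**
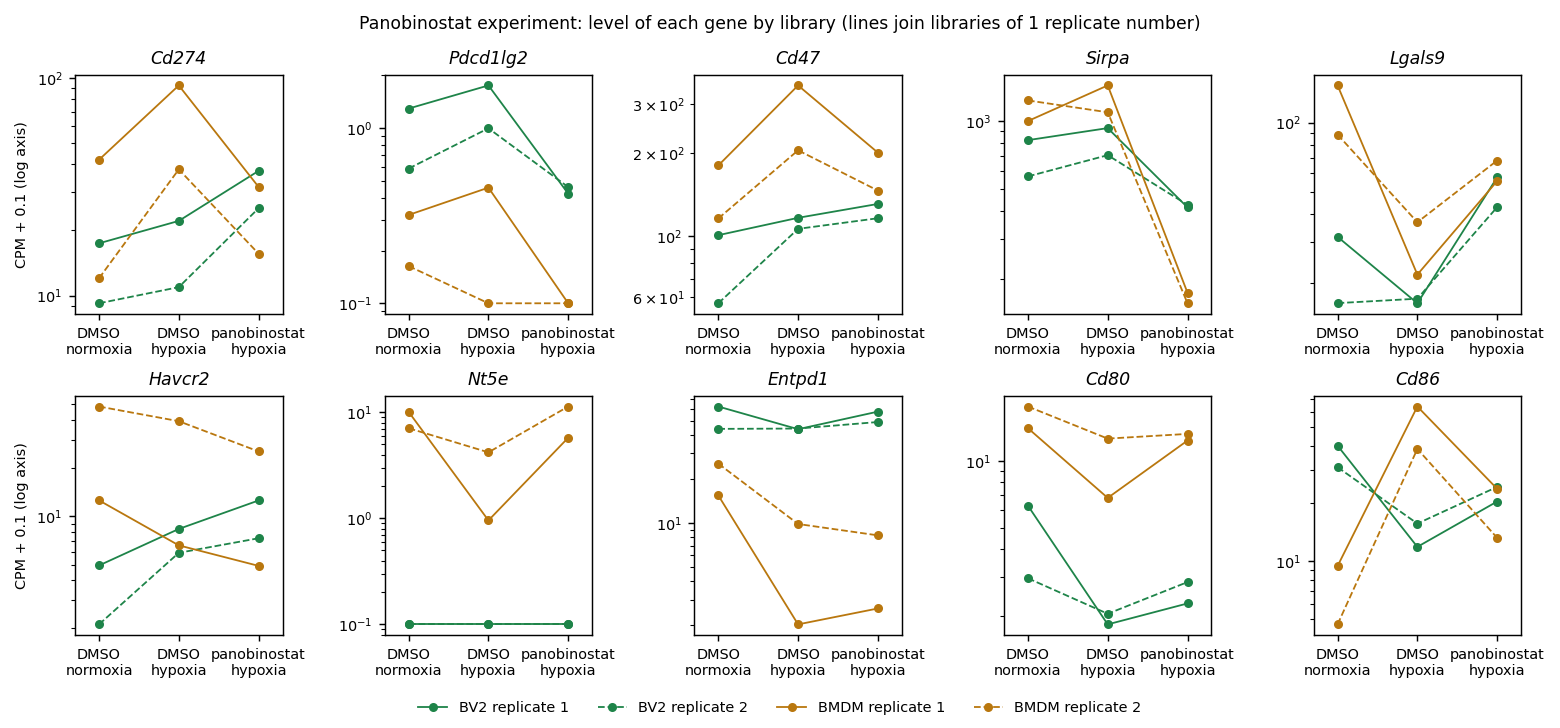
Level of each member in the panobinostat experiment, as CPM plus 0.1 on a log axis, in BV2 cells and BMDM; each line joins the libraries of 1 replicate number across the 3 conditions. Sirpa is lowest with panobinostat in every line, and Cd274 goes up with panobinostat in BV2 cells and down in BMDM.

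Set against normoxia with DMSO, hypoxia with panobinostat left 5 of 9 members different in BV2 cells (48.4% of all genes), a comparison that shares its libraries with those above. Cd274 (log2 1.24), Havcr2 (1.52) and Lgals9 (1.07) were higher, and Sirpa (-0.73) and Cd86 (-0.66) lower, with edgeR adjusted p of 0.0251, 0.0187, 0.0163, 0.0402 and 0.0469. Each of these calls was lost without panobinostat replicate 1 (adjusted p 0.115 to 0.265). The calls of Cd274, Lgals9 and Havcr2 were also lost without DMSO replicate 2 (0.0662 to 0.153), and those of Sirpa and Cd86 without DMSO replicate 1 (0.158 and 0.217) or panobinostat replicate 2 (0.194 and 0.116). In BMDM 1 of 9 was called (13.2%): Sirpa had 999.7 and 1233 CPM in normoxia with DMSO and 174 and 156 in hypoxia with panobinostat (log2 -2.76, edgeR adjusted p 0.018), a call lost without any 1 of its 4 libraries (0.0675 to 0.125). With the replicate block, Cd47 in BV2 cells (log2 0.69, adjusted p 0.00524) and in BMDM Havcr2 (-1.15, 0.0263), Entpd1 (-2.16, 0.0206) and Cd86 (1.42, 0.0115) also passed. Macrophage markers summed to 9627 and 6851 CPM in those normoxic libraries, and their part was not tested here either.

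Effects were also compared between cell types. The hypoxia effect in BV2 minus that in GL261 monocultures was called for 2 of 9 members, beside 37.4% of all genes. Of these 9, Sirpa, Entpd1, Cd86, Havcr2 and Pdcd1lg2 were at or near 0 in GL261 monocultures, which gave no measurable response to compare. Lgals9 differed by log2 1.09 (SE 0.39, edgeR adjusted p 0.0323), the fall being in GL261 cells, and Cd80 by -2.06 (SE 0.63, adjusted p 0.0152). Cd80 fell in BV2 monocultures (log2 -1.25), while in GL261 monocultures it had 0.563 and 0.267 CPM in normoxia and 0.954 and 0.589 in hypoxia (log2 0.90, edgeR adjusted p 0.299), which was not called. The Lgals9 difference was lost without BV2 normoxic replicate 2 (0.243), BV2 hypoxic replicate 1 (0.200), GL261 normoxic replicate 1 (0.239) or GL261 hypoxic replicate 2 (0.144), and the Cd80 difference without GL261 normoxic replicate 2 (0.0628) or GL261 hypoxic replicate 1 (0.112). The rise of Cd47 was not shown to differ between the lines (log2 0.43, edgeR adjusted p 0.112), nor was that of Cd274 (0.39, edgeR adjusted p 0.293). With DMSO, the hypoxia effect in BV2 minus that in BMDM was called for 1 of 10 members, beside 0.664% of all genes. Cd86 differed by log2 -4.19 (SE 0.60, adjusted p 0.0256), lower in hypoxic BV2 cells and higher in hypoxic BMDM. That call was lost without any 1 of the 4 BV2 libraries (0.0844 to 0.131), without normoxic BMDM replicate 1 (0.0562) or without hypoxic BMDM replicate 1 (0.0612), at log2 differences from -4.76 to -3.74. The panobinostat effect did not pass the test of a difference between BV2 cells and BMDM for any of 10 members (edgeR; 3 at an unadjusted p under 0.05, and 1 by DESeq2), beside 0.0251% of all genes. For Cd274 that difference was log2 2.39 (SE 0.94, adjusted p 0.395) and for Sirpa 1.97 (SE 0.41, adjusted p 0.165; DESeq2 adjusted p 0.000831).

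Other genes of the same pathways were taken from 4 lists and are described by counts beside the median of all genes, which lay between -0.04 and 0.04 on the log2 scale. The share of all genes called with hypoxia, in either direction, was 61.9% in BV2 monocultures, 67.3% in BV2 co-cultures and 37.5% in BV2 cells with DMSO. It was 44.6% and 52.4% in GL261 monocultures and co-cultures, and 23.9%, 34.8% and 0.483% in BMDM alone, from co-culture and with DMSO. Each list count with hypoxia is read against these shares. Of 29 further adenosine and extracellular ATP genes, hypoxia gave 4 higher and 10 lower of 19 tested (median log2 -0.80) in BV2 monocultures, 0 higher and 10 lower of 20 tested (median log2 -0.86) in GL261 monocultures and 0 higher and 11 lower of 22 tested (median log2 -0.63) in BMDM from co-culture. Counts in the other hypoxia comparisons were 5 higher and 12 lower of 19 in BV2 co-cultures, 0 higher and 10 lower of 18 with DMSO in BV2, 1 higher and 9 lower of 20 in GL261 co-cultures, 1 higher and 4 lower of 22 in BMDM alone and 0 higher and 0 lower of 25 in BMDM with DMSO. The nucleoside transporter Slc29a2 fell in BV2 monocultures from 31.4 ± 0.643 CPM (SD, n = 2) to 8.12 ± 0.451 CPM (SD, n = 2; log2 -1.95, edgeR adjusted p 8.08e-09) and fell in co-culture too (log2 -2.22). Its relative Slc29a1 fell in GL261 monocultures from 147 ± 11.2 CPM (SD, n = 2) to 45.7 ± 7.38 CPM (SD, n = 2; log2 -1.68, edgeR adjusted p 1.43e-05). The adenosine receptor Adora2b fell in BMDM from co-culture, from 9.24 ± 3.37 CPM (SD, n = 3) to 2.72 ± 0.81 CPM (SD, n = 3; log2 -1.77, edgeR adjusted p 0.00223), and adenosine deaminase Ada fell in BMDM alone, from 8.13 ± 0.272 CPM (SD, n = 2) to 2.45 ± 0.24 CPM (SD, n = 2; log2 -1.73, edgeR adjusted p 0.00339). Other falls were of the nucleotide receptors P2ry6 in BV2 co-cultures (log2 -2.21), P2ry12 in BMDM from co-culture (-1.94) and P2ry13 in BV2 cells with DMSO (-2.81), and of the NAD-consuming ectoenzyme Cd38 in BV2 monocultures (-1.66).

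Of 29 further T-cell co-signalling genes, hypoxia gave 12 higher and 2 lower of 18 tested (median log2 0.83) in BV2 monocultures, 4 higher and 4 lower of 16 tested (median log2 -0.14) in GL261 monocultures and 4 higher and 1 lower of 16 tested (median log2 0.36) in BMDM alone. BV2 cells with DMSO had 5 higher and 4 lower of 16 tested (median log2 -0.12), and the difference from BV2 monocultures was not tested. Counts were 10 higher and 2 lower of 18 in BV2 co-cultures, 4 higher and 2 lower of 16 in GL261 co-cultures, 4 higher and 2 lower of 16 in BMDM from co-culture and 0 higher and 0 lower of 16 in BMDM with DMSO. Vsir, which encodes the checkpoint VISTA, rose in BV2 monocultures from 41.8 ± 3.36 CPM (SD, n = 2) to 279 ± 19.9 CPM (SD, n = 2; log2 2.74, edgeR adjusted p 1.00e-10). Cd28, the receptor for Cd80 and Cd86, rose in BMDM alone from 9.03 ± 0.148 CPM (SD, n = 2) to 63 ± 4.37 CPM (SD, n = 2; log2 2.80, edgeR adjusted p 7.03e-05), and Pvr, a ligand of TIGIT, from 17.3 ± 0.107 CPM (SD, n = 2) to 61.1 ± 1.58 CPM (SD, n = 2; log2 1.82, edgeR adjusted p 0.000799). In BMDM from co-culture the log2 changes of these genes were 2.99 and 1.88. T-cell markers summed to at most 1.16 CPM in these BMDM monocultures. Cd276 (B7-H3) fell in GL261 co-cultures from 94.6 ± 4.25 CPM (SD, n = 2) to 29.1 ± 4.8 CPM (SD, n = 2; log2 -1.70, edgeR adjusted p 4.52e-06), and Icosl, the ligand of ICOS, rose there from 2.29 ± 0.896 CPM (SD, n = 2) to 12.3 ± 0.204 CPM (SD, n = 2; log2 2.43, edgeR adjusted p 3.81e-05). With co-culture at most 2 genes of the list were called in a direction in each of the 6 comparisons. The shares of all genes called in normoxia and hypoxia were 14.9% and 15.7% in BV2 cells, 0.514% and 1.39% in GL261 cells and 1.64% and 7.11% in BMDM. With co-culture in normoxic BV2 cells Cd28 fell from 174 ± 16.8 CPM (SD, n = 2) to 110.0 ± 8.33 CPM (SD, n = 2; log2 -0.66, edgeR adjusted p 0.00355). Panobinostat gave 3 higher and 2 lower of 16 in BV2 cells, where 14.6% of all genes were called in either direction. There the co-stimulatory receptor Cd40 rose from 1.43 ± 0.647 CPM (SD, n = 2) to 7.35 ± 1.11 CPM (SD, n = 2; log2 2.36, edgeR adjusted p 0.00869). Icos, a co-stimulatory receptor best known on T cells, fell from 2.97 ± 0.977 to 0.193 ± 0.0689 CPM (SD, n = 2, log2 -3.90). The latter is below the mean floor of 3 counts per library, 0.229 CPM, so the size of this change is uncertain.

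Among 13 further phagocytosis checkpoint genes, hypoxia gave 4 higher and 3 lower of 10 tested (median log2 0.53) in BV2 monocultures, near the share of all genes, 2 higher and 1 lower of 8 in GL261 monocultures and 3 higher and 2 lower of 13 in BMDM alone. In the other comparisons it gave 5 higher and 2 lower of 10 in BV2 co-cultures, 2 higher and 0 lower of 10 in BV2 cells with DMSO, 3 higher and 1 lower of 8 in GL261 co-cultures, 2 higher and 2 lower of 13 tested (median log2 -0.21) in BMDM from co-culture and 0 higher and 0 lower of 13 in BMDM with DMSO. The CD47 ligand Thbs1 rose in GL261 monocultures, from 10.7 ± 1.31 CPM (SD, n = 2) to 82.3 ± 52.1 CPM (SD, n = 2; log2 2.95, edgeR adjusted p 0.000163), and also in co-culture (log2 3.24). Cd24a, a ligand of inhibitory Siglecs, fell in the same cells (log2 -2.36 alone and -2.29 in co-culture). The inhibitory receptor gene Siglece rose with co-culture in hypoxic BMDM from 6.71 ± 2.75 CPM (SD, n = 2) to 31.6 ± 19.6 CPM (SD, n = 3; log2 2.24, edgeR adjusted p 0.0276). Pilra rose with co-culture in normoxic BMDM from 27.1 ± 4.01 CPM (SD, n = 2) to 107 ± 57.9 CPM (SD, n = 3; log2 1.98, edgeR adjusted p 0.0331), and 14.7% of its 75-base words also occur in other genes. Slamf7, a receptor that promotes phagocytosis, rose with panobinostat in BV2 cells from 0.765 ± 0.081 CPM (SD, n = 2) to 7.76 ± 3.83 CPM (SD, n = 2; log2 3.32, edgeR adjusted p 0.00457). Of 14 regulators of Cd274, hypoxia gave 7 higher and 0 lower of 13 tested (median log2 0.61) in GL261 monocultures, 9 higher and 0 lower of 13 tested (median log2 1.02) in GL261 co-cultures, 6 higher and 3 lower of 14 tested (median log2 0.10) in BV2 monocultures, near the share of all genes, and 8 higher and 4 lower of 14 tested (median log2 0.37) in BV2 co-cultures. Counts were 5 higher and 3 lower of 14 tested (median log2 -0.15) in BV2 cells with DMSO, 2 higher and 0 lower of 14 tested (median log2 -0.17) in BMDM alone, 2 higher and 2 lower of 14 in BMDM from co-culture and 0 higher and 0 lower of 14 in BMDM with DMSO. The interferon regulator Irf1 rose in GL261 monocultures from 84.3 ± 2.58 CPM (SD, n = 2) to 275 ± 42 CPM (SD, n = 2; log2 1.70, edgeR adjusted p 3.03e-05). Stat3 rose with co-culture in hypoxic GL261 cells from 112 ± 21.2 CPM (SD, n = 2) to 267 ± 58.3 CPM (SD, n = 2; log2 1.26, edgeR adjusted p 0.00671).

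The genes whose group means followed each member most closely were found by Pearson's r of log2(CPM + 0.5), centred within each cell type and experiment, given as a description with no p. Over 18 groups and 9423 genes, r was highest for Cd47 with Insr (0.96), Ulk3 (0.96) and Zdhhc20 (0.95), for Cd274 with D730003I15Rik (0.91), Cox17 (0.87) and Igf2bp2 (0.87) and for Lgals9 with Dhx58 (0.85), Hmox2 (0.84) and Isca2 (0.84). Members too low in GL261 cells were compared over 14 myeloid groups and 10018 genes. Sirpa was closest to Slc6a12 (0.98), Cyb561d1 (0.97) and Wdr13 (0.97), Cd86 to Selenof (0.95), Srpk1 (0.94) and Cd83 (0.94), Havcr2 to Fam129b (0.93), 5031439G07Rik (0.91) and Trmt2b (0.90), Entpd1 to Tnfrsf1a (0.91), Xylt2 (0.91) and Fcna (0.91) and Cd80 to Ttc19 (0.88), Bst2 (0.86) and Naa15 (0.85). The points are group means of 2 or 3 libraries that share oxygen and treatment, and Pdcd1lg2 and Nt5e were too low to be placed.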

How the data were processed

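Poly(A) RNA of glyoxal-fixed cells was read as paired ends from stranded libraries, per the labels' protocols. The authors deposited 3 tables of unnormalized counts, with 55487 Ensembl identifiers each, and used Trimmomatic 0.36, STAR 2.6, SAMtools, HTSeq 0.9.1 and the mouse build mm10, per the submitters' processing notes. The annotation and strand setting are not given in the sources used here. Symbols were found for 55141 identifiers, and positions come from the GRCm38 annotation.

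Counts were tested with edgeR 4.0.16 in R 4.3.3: TMM factors, filter on low counts (minimum count 10, total 15), a quasi-likelihood F test on group means and Benjamini-Hochberg adjustment over all genes tested, called at 0.05. Each cell type of an experiment had its own fit, and a joint fit served each comparison of cell types. The SE is the log2 change divided by the square root of F. The analysis was tested on simulated counts. Of the 10 members, 9 passed the filter in BV2 cells (not Nt5e), 9 in BMDM (not Pdcd1lg2) and 5 in GL261 cells (not Pdcd1lg2, Havcr2, Nt5e, Entpd1 or Cd86). A member that passed through the group where it is high had to differ. The members and the gene lists were chosen with earlier results of these data known. Pathway genes are named where they were among the 2 largest called changes per direction of a comparison, averaged at least 1 CPM and did not overlap between groups, and their other called comparisons may be given beside them. A pathway gene that this rule names is not reported here.

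Summed counts of a library ranged from 12639558 to 23568254 in BV2 cells, from 15410976 to 27238933 in GL261 cells and from 9634700 to 17000536 in BMDM. A count of 0 allows up to 3 counts, and floors and the 95% interval cover counting error only. All 22 replicate pairs differed by more than counting error (chi-square over its degrees of freedom 6.12 to 141). Partner transcripts are the median, over genes at 20 CPM or more in the partner monoculture and exceeding the cell's own monoculture by 100-fold or more (0.5 CPM added), of the level relative to the partner monoculture.

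Replicate numbers come from the titles. Deviations from group means of same-numbered libraries correlated by 0.154 to 0.389 in BV2 cells and 0.336 to 0.593 in BMDM of the panobinostat experiment, and by 0.244 to 0.455 in BMDM co-cultures, so these were taken as paired and a fit with the number as a block is given where it changes a call. The alternatives were DESeq2 1.42.0, its size factors in edgeR, a filter of 1 count in all or a mean of 5 CPM, the block, fits of the compared groups alone, partner counts subtracted or partner-high genes left out, and each library left out. The block covered every library of its fit, monocultures included. Leaving out BMDM of the panobinostat experiment was added after seeing the data.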

Additional observations from a re-analysis of the deposited data

Results flagged for a closer look

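In 3 cases the response of a member to hypoxia differed between cell types by a test of the difference itself. They were 2 of 9 members for BV2 against GL261 cells, beside 37.4% of all genes. The other was 1 of 10 members for BV2 cells against BMDM, beside 0.664% of all genes. The hypoxia effect on Lgals9 in BV2 monocultures exceeded that in GL261 monocultures by 1.09 on the log2 scale (edgeR adjusted p 0.0323), the log2 change being -0.08 in BV2 and -1.07 in GL261 cells. For Cd80 the difference between the same cells was -2.06 (adjusted p 0.0152), the log2 change being -1.25 in BV2 and 0.90 in GL261 cells, and GL261 libraries held at most 0.954 CPM of Cd80. For Cd86 the hypoxia effect with DMSO in BV2 cells minus that in BMDM was -4.19 (adjusted p 0.0256). Cd86 fell in both BV2 libraries (39.8 and 30.8 to 11.8 and 15.6 CPM) and was higher in both hypoxic BMDM libraries (9.36 and 4.6 to 63.8 and 38.3 CPM). In BMDM of the co-culture experiments it rose by log2 3.47 alone and 3.52 in co-culture. BV2 cells of those experiments went from 40.8 ± 3.39 to 32.1 ± 4.25 CPM alone (SD, n = 2), a call lost with DESeq2. From co-culture they had 40.3 ± 0.911 CPM in normoxia and 39.8 ± 2.8 CPM in hypoxia (SD, n = 2), which was not called. The BMDM of the tested difference are the libraries with the fibroblast markers, whose part in it was not tested. Each of the 3 calls was lost when certain single libraries were left out, as given with the results, and none changed direction.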

How the results depend on the processing

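No direction of a called member reversed under any alternative run. The 31 calls with hypoxia became 25 to 38 over the other settings and 29 to 33 with 1 library left out. The 7 calls with co-culture became 19 without the filter on low counts, 3 at a mean of 5 CPM, 15 with the replicate block, 2 with partner counts subtracted (Cd274 and Entpd1 in hypoxic BV2 cells) and 3 with partner-high genes left out, and 5 to 8 with 1 library left out. The 2 calls with panobinostat became 8 without the filter and 8 with the replicate block, and 0 to 2 with 1 library left out. Without the filter 1 member had a hypoxia effect that differed with co-culture, Cd274 in BMDM, against 0 otherwise (0 to 0 with 1 library left out), and 8 effects differed between cell types against 3 (2 to 4). The 15 differences between cell types in normoxia, 6 of them of members with 0 counts in 1 of the cell types, were 12 to 15 with 1 library left out and 8 without the comparison that uses BMDM of the panobinostat experiment, which leaves 9 tests. Without these BMDM, hypoxia kept its 31 calls (of 55 tests), panobinostat 2 (of 9) and effects between cell types 2 (of 9). The causes were not tested, except that fewer comparisons remain in the last. The partner share of hypoxic GL261 co-cultures was 0.271% with partner genes chosen at 30-fold. Same-numbered libraries correlated by -0.0807 to 0.175 in BV2, 0.0433 to 0.369 in GL261 and -0.00185 to 0.455 over all BMDM of the co-culture experiments. Outside the BMDM co-cultures these were not taken as paired. The block, run as an alternative, still covered every library of a fit, BMDM monocultures included. Block results of the co-culture experiments thus rest in part on a pairing that was not assumed. The GL261 range overlaps the 0.154 to 0.389 of BV2 cells in the panobinostat experiment, which were taken as paired. The labels state no pairing, and the choice was made from these correlations. With the replicate block, co-culture calls were added for Lgals9 in BV2 and GL261 cells at both oxygen levels, Cd80 in hypoxic BV2, Cd47 in hypoxic GL261, Cd274 in normoxic BMDM and Cd86 in BMDM at both, Havcr2 in hypoxic BMDM was lost (adjusted p 0.0546), and Cd274 was called lower in BV2 than BMDM with DMSO (adjusted p 0.0121). The block changed no other call than these and those given with the results. Where a library was left out of 2, the lone sample was assumed to vary like the other groups. At these depths a member with 0 counts may hold up to 3 counts per library.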
